A study of Mus musculus with 4 samples.

Results

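The genes described here are 9 complement components and receptors: the C1q chains C1qa, C1qb and C1qc, the components C3, Cfb and Cfp, the inhibitor Serping1 and the receptors C3ar1 and C5ar1. They were taken by symbol from the 31055 rows of a single-cell count table of mouse lung tumors, and each symbol matched 1 row. Complement is a cascade of secreted proteins that marks cells and debris for removal. C1q starts the classical pathway, C3 is the hub on which all branches converge, factor B (Cfb) and properdin (Cfp) drive and stabilise the alternative pathway, and C1 inhibitor (Serping1) restrains the first classical proteases. The fragments C3a and C5a signal through C3ar1 and C5ar1 to attract and activate myeloid cells, and macrophages, dendritic cells and stromal cells can make components locally in tissue.

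The tumors came from 4 female mice in which lentiviral Cre, delivered into the trachea, switched on an oncogene, inactivated Lkb1 through the XTR gene trap and labelled cells with tdTomato. All 4 carried Lkb1XTR/XTR and a Rosa26LSL-tdTomato allele. The 2 Restored mice also had FLPo-ERT2 at Rosa26, a recombinase that removes the trap once tamoxifen activates it, and the 2 Non-Restored mice lacked it. Tumors grew for 16 weeks, all 4 mice received 4 mg doses of tamoxifen over 2 weeks, and DAPI-negative cells were sorted from dissociated tumors. The labels give no age for these mice. No file used here ties a cell to a mouse, so the cells form 1 pooled sample: Restored and Non-Restored mice were not compared, the spread between mice could not be given, and all intervals are 95% intervals that cover counting error only.

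The table held 20351 cells and 58624795 unique molecular identifiers (UMIs, each standing for 1 captured transcript), and 19488 cells passed quality filters with a median of 1950 UMIs per cell. Cells were gated by marker genes, none of them a complement gene. The gate placed 14686 cells in 19 classes of 50 cells or more, 38 cells in 3 smaller classes and 4764 cells (24.4%) in none. A class is called by the type whose markers it carries ("T-like"), and names rebuilt in this way may differ from those of the study. Of the cells in classes, 1745 lay within 0.05 of a gating threshold. A less secure name was type 2 dendritic-like (862 cells). It rested on 5 markers, 4 of which were among its 10 leading genes (Tnip3, Mgl2, Cd209a and H2-DMb2), but Mmp12 and Epcam were among those 10 too. C1qa and C1qc stood among the 10 leading genes of interstitial macrophage-like cells, and Serping1 among those of fibroblast-like cells, although the gate did not use them. Cells that scored closely for interstitial macrophage and type 2 dendritic markers were kept apart as a mixed class of 101 cells. Of these, 50 lay within 0.05 of a gating threshold. Levels are given as CPM, the UMIs of a gene per 1000000 UMIs summed over the cells of a class.

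**Figure D1:**
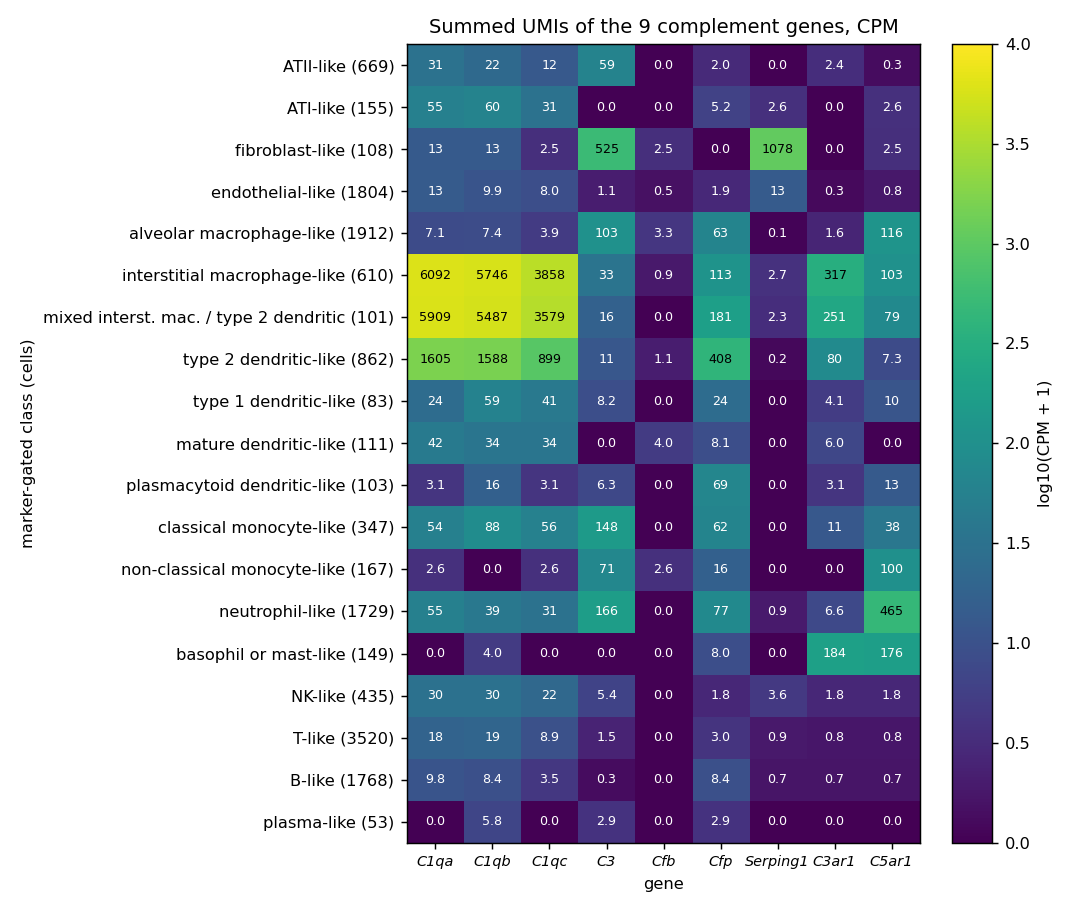
Level of the 9 complement genes (columns) in the 19 classes of 50 cells or more (rows, cell numbers in parentheses). Printed values are CPM and the colour gives log10(CPM + 1). The C1q chains reach 3858 to 6092 CPM in interstitial macrophage-like cells, Serping1 reaches 1078 CPM in fibroblast-like cells and C5ar1 reaches 465 CPM in neutrophil-like cells.

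Components and receptors were highest in overlapping sets of cells. Interstitial macrophage-like cells were highest for C1qa, C1qb, C1qc and C3ar1. Fibroblast-like cells were highest for C3 and Serping1, type 2 dendritic-like cells for Cfp, and neutrophil-like cells for C5ar1. Cfb was at most 4.03 CPM in any class. The kept cells held 39162 UMIs of C1qa, 38021 of C1qb, 23646 of C1qc, 5094 of Cfp, 3031 of C5ar1, 2524 of C3, 2018 of C3ar1, 548 of Serping1 and 59 of Cfb. The library captures transcript 3′ ends, so a CPM counts molecules and does not grow with gene length.

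C1qa (chr4:136895917-136898803), C1qc (chr4:136889804-136893065) and C1qb (chr4:136880129-136886187) lie next to each other on the minus strand of mouse chromosome 4 in mm10. They span 18675 bases, with no other annotated gene inside. Promoter sequences from RefSeq (GRCm38.p6, 250 bases before to 50 after the start) were matched for 6 of the 9 genes. Shown here are those of C1qb and C1qc, whose levels moved together across classes, of Cfp, which moved against them between macrophage-like and dendritic-like cells, and of C3, whose sources were mostly other cells. Capitals mark the letters GAGGAA, the core bound by the myeloid factor PU.1, and TTGCNNAA, a C/EBP-type site, searched on both strands. The sequences run 5′ to 3′ along the gene, and all 4 genes are on the minus strand, at chr4:136886151-136886450 (C1qb), chr4:136892865-136893164 (C1qc), chrX:20931506-20931805 (Cfp) and chr17:57228087-57228386 (C3).
C1qb: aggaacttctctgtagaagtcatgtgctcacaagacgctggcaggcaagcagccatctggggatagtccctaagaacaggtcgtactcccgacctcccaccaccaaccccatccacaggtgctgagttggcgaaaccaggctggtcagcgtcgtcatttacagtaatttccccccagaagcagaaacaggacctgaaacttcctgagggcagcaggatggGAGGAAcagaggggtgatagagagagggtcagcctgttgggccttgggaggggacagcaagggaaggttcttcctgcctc
C1qc: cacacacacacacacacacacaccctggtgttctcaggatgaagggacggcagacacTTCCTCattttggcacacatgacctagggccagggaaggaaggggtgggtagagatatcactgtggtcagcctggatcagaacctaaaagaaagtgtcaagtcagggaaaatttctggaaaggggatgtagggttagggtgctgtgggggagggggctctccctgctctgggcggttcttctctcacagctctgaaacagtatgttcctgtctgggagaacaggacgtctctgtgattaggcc
Cfp: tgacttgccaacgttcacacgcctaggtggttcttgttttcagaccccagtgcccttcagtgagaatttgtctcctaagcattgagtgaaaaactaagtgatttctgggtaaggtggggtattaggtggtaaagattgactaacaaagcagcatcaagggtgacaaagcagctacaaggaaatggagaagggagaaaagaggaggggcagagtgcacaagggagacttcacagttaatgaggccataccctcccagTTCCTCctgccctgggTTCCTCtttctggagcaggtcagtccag
C3: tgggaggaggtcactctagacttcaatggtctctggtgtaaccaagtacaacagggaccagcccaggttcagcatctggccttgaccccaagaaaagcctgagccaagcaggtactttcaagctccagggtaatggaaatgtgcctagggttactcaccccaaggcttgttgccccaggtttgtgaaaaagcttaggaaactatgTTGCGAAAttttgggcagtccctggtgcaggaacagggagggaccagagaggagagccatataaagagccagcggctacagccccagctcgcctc

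GAGGAA occurred once in each of the C1qb and C1qc windows, at -30 and -193 from the start, and at 6 and 22 in the Cfp window. The C3 window held TTGCNNAA once, at -45, and no GAGGAA. Neither motif was found in the windows of C3ar1 and C5ar1. Of all 32851 promoters of this length in the table, 28.3% held GAGGAA and 10.8% held TTGCNNAA, so these matches are a description of the letters only.

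C1q expression was a property of nearly every interstitial macrophage-like cell. C1qa stood at 6092 CPM (5990 to 6195), C1qb at 5746 CPM (5646 to 5846) and C1qc at 3858 CPM (3776 to 3940). All 3 chains were seen together in 608 of the 610 cells. Summed over the chains, the level was 15695 CPM in interstitial macrophage-like cells, 14975 CPM in the mixed class and 4091 CPM in type 2 dendritic-like cells. The interstitial level was 3.84-fold (3.77 to 3.91) that of type 2 dendritic-like cells. The size of this gap depended on the gate, which the interval does not cover. C1qa stood at 6092 against 1605 CPM here. With a stricter gate, which left 195 type 2 dendritic-like cells, it was 6151 against 1002 CPM. With clusters in place of the gate it was 5526 against 2006 CPM. The C1qa level of the mixed class did not differ beyond counting error from that of interstitial macrophage-like cells (log2 ratio 0.04, -0.02 to 0.11), while C1qb (0.07, 0.0031 to 0.13) and C1qc (0.11, 0.03 to 0.19) were slightly higher in the interstitial class.

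Alveolar macrophage-like cells, the resident phagocytes of the air spaces, were at the opposite end. Their summed C1q level was 18.4 CPM (15.9 to 21.2) over 1912 cells, and the interstitial level was 855-fold higher (742 to 990), a log2 ratio of 9.74 that ran from 8.36 with no upper limits on genes and mitochondrial share to 10.50 with a stricter gate. The alveolar level lies below the 45.8 CPM (40.8 to 51.2) of T-like cells, lymphocytes that are not known to make C1q. It overlaps the 21.7 CPM (16.6 to 27.8) of B-like cells and is read as background. With each cell thinned to 1000 UMIs, 99.0% of interstitial macrophage-like cells had a C1qa UMI (100% without thinning, median depth 3488 UMIs). The share was 57.7% of type 2 dendritic-like cells (77.7% unthinned, median depth 5070 UMIs) and 0.638% of T-like cells (1.31% unthinned, median depth 1656 UMIs). Cells under 1000 UMIs were left out of the thinned shares, which rest on 605, 861 and 3293 cells in the same order. The thinned share of T-like cells for the other members was 0.881% for C1qb, 0.395% for C1qc, 0.273% for Cfp, 0.152% for C3 and at most 0.0911% for the rest.

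C1q outside the macrophage and dendritic group sat in few cells, and how it was spread over them differed by class. In T-like cells, 2 of 3520 cells held at least 50% of the 118 C1qa UMIs. In neutrophil-like cells, 24 of 1729 cells had a C1qa UMI, 3 of which held at least 50% of the 116 UMIs. In B-like cells the 28 C1qa UMIs were spread thinly instead, over 26 of 1768 cells with at most 2 in a cell. Classical monocyte-like cells, the blood precursors of many tissue macrophages, had 199 CPM of summed C1q (174 to 226), with 93.4% of the 347 cells without any. Non-classical monocyte-like cells had 5.27 CPM, from 2 UMIs.

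Of all 100829 C1q UMIs, 59.4% fell in the interstitial, mixed and type 2 dendritic classes and 39.0% in unassigned cells. Most of the latter were in cells closest to the same types. The 803 unassigned cells that scored highest for type 2 dendritic markers stood at 6035 CPM, and the 193 closest to interstitial macrophages stood at 12405 CPM. Together they carried 30.8% of all C1q UMIs.

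The 3 chains kept nearly the same proportions wherever C1q was abundant. C1qa made up 38.8% of the summed UMIs in interstitial macrophage-like cells, 39.5% in the mixed class and 39.2% in type 2 dendritic-like cells. C1qb made up 36.6%, 36.6% and 38.8%, and C1qc 24.6%, 23.9% and 22.0% in the same order. The C1qc share was slightly lower in type 2 dendritic-like cells than in interstitial macrophage-like cells, with intervals that did not overlap.

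In single cells, the summed C1q level had quartiles of 514, 3165 and 6310 CPM in type 2 dendritic-like cells, and 18.8% of them had none. In interstitial macrophage-like cells the quartiles were 12660, 15406 and 18470 CPM, and no cell lacked C1q. The upper quartile of the former thus lay below the lower quartile of the latter, while the width between the quartiles was much the same in CPM and larger relative to the median in type 2 dendritic-like cells.

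**Figure D2:**
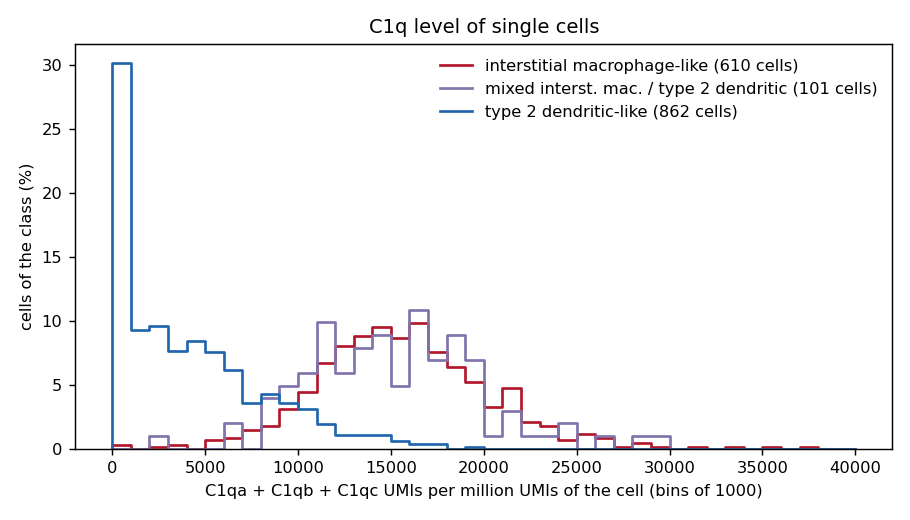
Distribution of the summed C1qa, C1qb and C1qc level over single cells (horizontal axis, CPM of the cell in bins of 1000; vertical axis, percent of the cells of the class). Interstitial macrophage-like and mixed cells peak around their medians of 15406 and 14658, while type 2 dendritic-like cells pile up in the lowest bin and trail upward.

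Cells of the 3 classes were ordered by the difference of their interstitial macrophage and type 2 dendritic marker scores, neither of which holds a complement gene, and 1573 cells were split into 9 bins. C1q rose in steps through the dendritic side of the order and then levelled off. It stood at 2104 CPM at the dendritic end (285 cells), at 3908, 5431 and 9498 CPM in the next 3 bins, and at 15386 CPM in the first bin beyond 0. From there to the interstitial end it stayed between 15230 and 16489 CPM.

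Properdin ran the other way. Cfp stood at 455 CPM (421 to 491) at the dendritic end and between 371 and 395 CPM in the next 3 bins. It was at 167 CPM (127 to 215) in the first bin beyond 0 and at 82.1 CPM (54.1 to 120) at the interstitial end. Both anaphylatoxin receptors rose with the interstitial score. C3ar1 went from 56.1 CPM (44.5 to 69.7) to 438 CPM (369 to 516), and C5ar1 from 1.38 CPM (2 UMIs) to 131 CPM (94.7 to 176). C4b, the classical pathway component cleaved by the C1 complex, went from 0.692 CPM (1 UMI) to 161 CPM. The median depth of the bins fell from 4798 to 3381 UMIs per cell between the ends, and its part in these trends was not tested.

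**Figure D3:**
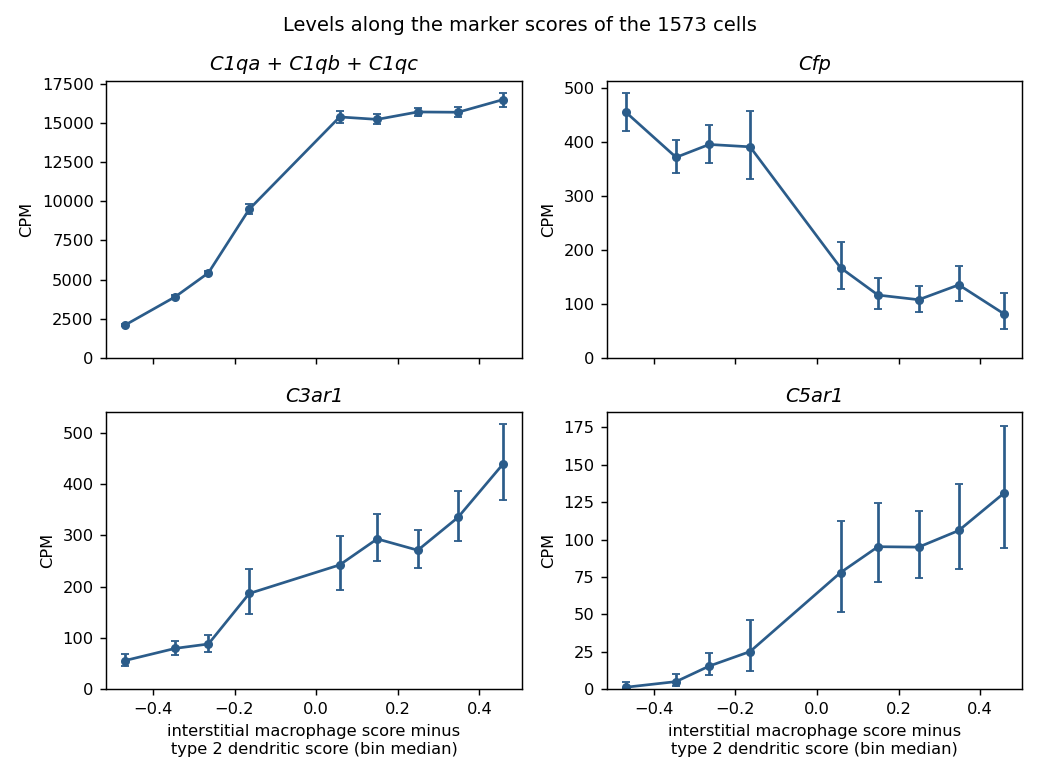
Levels (vertical axes, CPM) in 9 bins of cells ordered by interstitial macrophage score minus type 2 dendritic score (horizontal axes, bin medians). Bars are exact Poisson 95% intervals. The summed C1q level is flat above 15230 CPM on the positive side, Cfp drops from 391 to 167 CPM across 0, and C3ar1 and C5ar1 are highest at the interstitial end.

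Set against all genes, 7 of the 9 members reached 50 CPM in interstitial or alveolar macrophage-like cells, a filter that a gene high in 1 class passes for that reason. C1qa, C1qb, C1qc and C3ar1 were at least 2-fold higher in interstitial macrophage-like cells on the log2(CPM + 10) scale, as were 8.41% of the 3185 genes compared. C3 was at least 2-fold lower, as were 15.6% of genes. Against type 2 dendritic-like cells, 6 members passed the filter. The C1q chains, C3ar1 and C5ar1 were at least 2-fold higher in the interstitial class, as were 7% of 2744 genes, and Cfp was lower, as were 5.83%.

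C3 (chr17:57203970-57228136, minus strand) was found in stromal, myeloid and epithelial classes. It was highest in fibroblast-like cells, at 525 CPM (456 to 601) over 108 cells. Neutrophil-like cells followed at 166 CPM (149 to 184), classical monocyte-like cells at 148 CPM (127 to 173), alveolar macrophage-like cells at 103 CPM (96.8 to 109), non-classical monocyte-like cells at 71.1 CPM (46.9 to 104) and alveolar type II (ATII)-like cells at 59.4 CPM (51.0 to 68.9). The fibroblast level was 3.16-fold (2.65 to 3.77) the neutrophil level. Neutrophil-like and classical monocyte-like cells did not differ beyond counting error (log2 ratio 0.16, -0.11 to 0.43), nor did non-classical monocyte-like and ATII-like cells (0.26, -0.38 to 0.85).

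The fibroblast level rested on few cells. A C3 UMI was found in 39 of the 108 cells, 6 of which held at least 50% of the 209 UMIs, with up to 30 UMIs in 1 cell. Thinned to 1000 UMIs, 24.8% of fibroblast-like cells had C3 (16.7 to 34.3, 25 of 101 cells, median depth before thinning 3602 UMIs). In neutrophil-like cells C3 was spread thinly instead, with at most 4 UMIs in a cell. Alveolar macrophage-like cells, whose median depth was 5507 UMIs against 900 in neutrophil-like cells, carried the largest share of all C3 UMIs among the classes. It was 42.6%, against 13.9% in neutrophil-like cells and 8.28% in fibroblast-like cells.

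**Figure D4:**
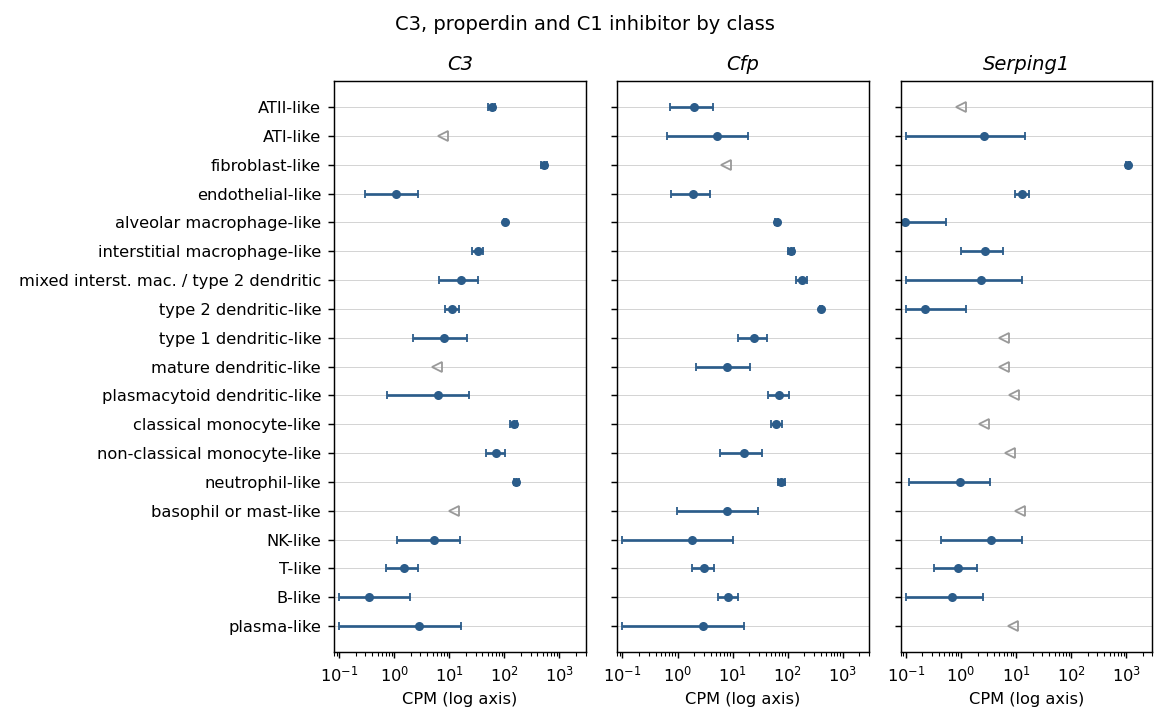
Level of C3, Cfp and Serping1 (horizontal log axes, CPM) in the 19 classes. Points are CPM with exact Poisson 95% intervals, cut at 0.1 CPM on the left, and open triangles mark classes with no UMI, placed at the level that 3 UMIs would give. Serping1 stands at 1078 CPM in fibroblast-like cells and at 12.9 CPM or less in every other class shown.

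Macrophage types were reversed for C3 relative to C1q. Interstitial macrophage-like cells had 33.3 CPM (26.2 to 41.8), and the log2 ratio of interstitial over alveolar was -1.63 (-1.99 to -1.29). The C1q-poor alveolar macrophage-like cells also held the highest level of C4b, 392 CPM (380 to 404), against 84.6 CPM in interstitial macrophage-like cells.

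Between the alveolar epithelial classes, C3 was seen in ATII-like cells and not in alveolar type I (ATI)-like cells. The classes are named after the surfactant-making type II cells and the thin gas-exchange type I cells of the lung. They are not a sample of normal epithelium. TdTomato was found in 97.8% of ATII-like and 94.8% of ATI-like cells, and the study names ATII-like and ATI-like groups among its neoplastic cells. The small club-like class (5 cells) had 101 CPM (37.2 to 221) from 6 UMIs, and the 22 ciliated-like cells had 32.2 CPM from 3 UMIs. ATI-like cells had 0 C3 UMIs in 155 cells. Taking a count of 0 at the level of 3 UMIs (7.84 CPM), C3 was 7.59-fold higher in ATII-like cells, a bound that leaves out counting error. The exact interval of the 0 UMIs reaches 9.64 CPM. That of the log2 ratio of ATI-like over ATII-like cells reaches -2.61. Of 3 members that reached 50 CPM in either class, C3 was at least 2-fold lower in ATI-like cells, as were 7.84% of 2948 genes, and C1qb was higher, as were 11.8%. C3 passed this filter in ATII-like cells only and C1qb in ATI-like cells only. The C1qb value came from 23 UMIs in 6 ATI-like cells, 1 of which held at least 50%. Hc, which encodes C5, the source of the C5a fragment, was almost entirely in ATII-like cells, with 837 of its 854 UMIs there and a level of 283 CPM (264 to 303).

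Alveolar macrophage-like cells could be divided by tdTomato. A TdTomato UMI was present in 94.9% of them, against 21.2% of T-like and 28.9% of interstitial macrophage-like cells. These shares are unthinned, at median depths of 5507, 1656 and 3488 UMIs in the same order. The part of depth in them was not tested. C3 stood at 97.8 CPM in the 1814 cells with TdTomato and at 211 CPM in the 98 without, a log2 ratio of -1.11 (-1.41 to -0.79). Cfp went the other way, at 64.2 CPM with and 32.3 CPM without (log2 ratio 0.99, 0.26 to 1.84). C5ar1 was at 116 and 112 CPM and C4b at 390 and 430 CPM, neither different beyond counting error. Of the other receptor genes compared, Cd93 did not differ either, at 236 and 241 CPM. Itgax did, at 221 CPM with TdTomato and 368 CPM without (log2 ratio -0.73, -0.96 to -0.50). Median depths were 5508 and 5465 UMIs, and from which of the mice the 98 cells came is not known. With TdTomato-positive cells left out, alveolar macrophage-like cells were second to fibroblast-like cells for C3. Among epithelial classes, 97.8% of ATII-like and 94.8% of ATI-like cells had a TdTomato UMI, at median depths of 4362 and 2226 UMIs.

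Cfp (chrX:20925454-20931555, minus strand), the only known positive regulator of the alternative convertase, was highest in dendritic-like and macrophage-like cells that also carried C1q. Type 2 dendritic-like cells stood at 408 CPM (389 to 427), the mixed class at 181 CPM (143 to 226) and interstitial macrophage-like cells at 113 CPM (99.4 to 128). Among the next 4 classes, neighbours in the order did not differ beyond counting error, with 76.8 CPM in neutrophil-like, 68.8 CPM in plasmacytoid dendritic-like, 62.7 CPM in alveolar macrophage-like and 62.4 CPM in classical monocyte-like cells. Type 1 dendritic-like cells had 24.5 CPM (12.7 to 42.8) and mature dendritic-like cells 8.06 CPM from 4 UMIs. After thinning, 30.4% of type 2 dendritic-like cells had a Cfp UMI (76.8% unthinned). Within that class, C1qa was found in 78.4% of cells with Cfp and in 75.5% of cells without, whose median depths were 5244 and 4540 UMIs.

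Cfb (chr17:34856374-34862518, minus strand), the protease of the alternative convertase, was close to the limit of detection. Its 59 UMIs included 35 in alveolar macrophage-like cells (3.35 CPM, 2.33 to 4.66). The nominally highest class, mature dendritic-like cells at 4.03 CPM (0.488 to 14.6), rested on 2 UMIs. ATII-like and neutrophil-like cells had none. Taken as in C3 at the level of 3 UMIs, a count of 0 allows 1.01 CPM in the former and 1.42 CPM in the latter, and the upper ends of their exact intervals are 1.25 and 1.75 CPM. A readthrough gene model on the same strand, Gm20547, covers 79.5% of the 2825 exonic bases of Cfb and itself had 0 UMIs. Cell Ranger does not count reads that fit more than 1 gene, and the part of this in the low Cfb level was not tested.

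Serping1 (chr2:84765387-84775444, minus strand), the C1 inhibitor, was a fibroblast gene. Fibroblast-like cells stood at 1078 CPM (978 to 1185) and held 78.3% of its UMIs, with a UMI in 97 of 108 cells (58.4% after thinning). Endothelial-like cells were next among classes of 50 cells or more, at 12.9 CPM (9.48 to 17.0), and the fibroblast level was 83.9-fold (62.1 to 116) higher. The endothelial level was 35.8 CPM when cells above the upper limits on genes and mitochondrial share were kept. ATII-like cells had 0 UMIs. With this count taken at 1.01 CPM, by the same rule as for C3, fibroblast-like cells were 1064-fold higher. That value leaves out counting error, and the exact interval of the 0 UMIs reaches 1.25 CPM. In the small pericyte or muscle-like class (11 cells), Serping1 was at 584 CPM (340 to 936). Among endothelial-like subsets it was at 49.5 CPM (18.2 to 108) in 46 larger-vessel-like cells, 8.56 CPM (4.68 to 14.4) in 750 capillary-like cells and 113 CPM (30.7 to 288), from 4 UMIs, in 16 lymphatic-like cells. The 59 aerocyte-like cells had none. Serping1 and C3 were the only members that reached 50 CPM in either class, and both did so in fibroblast-like cells only. The filter thus fixed their direction. Both were at least 2-fold higher in fibroblast-like than in endothelial-like cells, as were 14.7% of 3814 genes, while 19.8% of genes were lower. In fibroblast-like cells, 37 of the 39 cells with C3 also had Serping1 (94.9%), as did 87.0% of the cells without C3, at median depths of 4059 and 3496 UMIs.

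The receptor for C3a, C3ar1 (chr6:122847138-122856161, minus strand), followed C1q into interstitial macrophage-like cells. It stood there at 317 CPM (294 to 341), in the mixed class at 251 CPM (206 to 303), in basophil or mast-like cells at 184 CPM (135 to 246) and in type 2 dendritic-like cells at 80.4 CPM (72.4 to 89.1). No other class of 50 cells or more exceeded 11.4 CPM. A C3ar1 UMI was found in 60.2% of interstitial macrophage-like cells, and in 25.8% after thinning. Alveolar macrophage-like cells had 1.63 CPM (0.947 to 2.60), and the interstitial level was 195-fold higher (121 to 337). T-like cells, at 0.750 CPM, give the background of the table.

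The receptor for C5a, C5ar1 (chr7:16246743-16259540, minus strand), was highest in neutrophil-like cells, at 465 CPM (436 to 495). Basophil or mast-like cells had 176 CPM (128 to 237), alveolar macrophage-like cells 116 CPM (110 to 123), interstitial macrophage-like cells 103 CPM (90.2 to 117) and non-classical monocyte-like cells 100.1 CPM (70.9 to 137). Among the last 3, neighbours in this order did not differ beyond counting error. A C5ar1 UMI was found in 40.0% of neutrophil-like cells, whose median depth was 900 UMIs, and in 35.8% of the 706 cells deep enough for thinning. Classical monocyte-like cells stood at 37.8 CPM (27.3 to 50.9), and neutrophil-like cells were 12.3-fold higher (9.07 to 17.1). C5ar1 was 1 of the 584 genes at least 2-fold higher in neutrophil-like than in classical monocyte-like cells, which were 18.7% of 3126 genes. It passed the 50 CPM filter in neutrophil-like cells only. Of the 6 members compared it was the only one higher, and none was at least 2-fold lower, as were 21.9% of genes. With 6 members, these counts do not set them apart from all genes.

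**Figure D5:**
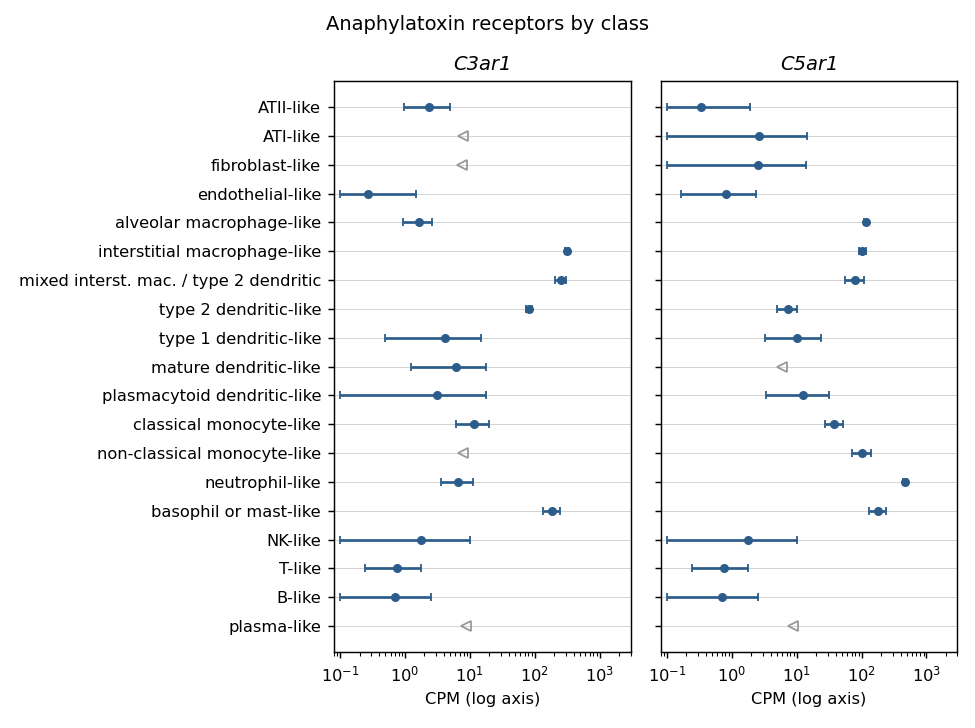
Level of C3ar1 and C5ar1 (horizontal log axes, CPM) in the 19 classes. Points are CPM with exact Poisson 95% intervals, cut at 0.1 CPM on the left, and open triangles mark classes with no UMI, placed at the level that 3 UMIs would give. Alveolar macrophage-like cells are at 116 CPM for C5ar1 and at 1.63 CPM for C3ar1, while interstitial macrophage-like cells have 103 and 317 CPM.

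The receptors thus parted the macrophage classes. C5ar1 did not differ between them beyond counting error (log2 ratio of interstitial over alveolar -0.17, -0.38 to 0.03), whereas C3ar1 was far higher in the interstitial one. Basophil or mast-like cells were the only class beside the interstitial and mixed classes above 50 CPM for both receptors. Of these 149 cells, 35 had C3ar1, 33 had C5ar1 and 7 had both. C5ar1 was found in 22.8% of the cells without C3ar1. Neutrophil-like cells carried C3 as well as C5ar1, and C5ar1 was found in 42.2% of cells with C3 and 39.6% of cells without, at median depths of 1095 and 872 UMIs. In alveolar macrophage-like cells the shares were 47.4% of the 694 cells with C3 and 37.9% of those without, at median depths of 5627 and 5456 UMIs. In interstitial macrophage-like cells, C5ar1 was found in 28.6% of cells with C3ar1 and 25.5% of cells without, at median depths of 3687 and 3265 UMIs. A cell with more UMIs shows more genes of any kind, and the part of depth in these differences was not tested.

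Of 47 other complement genes listed for comparison, 46 were in the table, 4 had no UMI and 19 had fewer than 20. Of the 18 that reached 50 CPM in some class, 5 were highest in fibroblast-like cells. They included the C1 proteases C1ra (131 CPM) and C1s1 (198 CPM), the collectin Colec12 (384 CPM) and the membrane inhibitor Cd59a (77.9 CPM, 52.9 to 111). Plasmacytoid dendritic-like cells had 71.9 CPM of Cd59a (45.6 to 108), an interval that overlaps. Of the 7 terminal pathway genes in the table, Hc was the only one to reach 50 CPM. The regulator Clu, or clusterin, was highest in ATI-like cells, at 1306 CPM. The decay-accelerating gene Cd55 (373 CPM) and the complement receptor Cr2 (89.2 CPM) were highest in B-like cells. Subunits of complement receptor 3, Itgam (287 CPM, 236 to 346) and Itgb2 (777 CPM), were highest in non-classical monocyte-like cells. Neutrophil-like cells had 254 CPM of Itgam (233 to 276), an interval that overlaps. The other C5a receptor, C5ar2, was highest in neutrophil-like cells too, at 20.9 CPM (15.2 to 28.0). The mixed class followed at 9.29 CPM (2.53 to 23.8), from 4 UMIs.

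The genes whose levels over the 18 named classes were most like those of the members were sought among 6646 genes. The correlations describe classes that share 1 table and are not tests. For all 3 C1q chains they were Plau, Fcrls and Dcstamp, with Pearson r between 0.888 and 0.911. For C3ar1 the closest were Gpr34 (r = 0.843), Fcrls and Npl, and for C5ar1 Pygl (r = 0.927), Hcar2 and Dmxl2. For Cfp they were Wfdc17 (r = 0.871), Clec4n and Fcgr2b, and for C3 Tmem38b (r = 0.840), Hgsnat and Mgst1. For Serping1 they were Ptn, Tmem45a and Adamtsl2, all at r = 0.996 and all highest in fibroblast-like cells. Cfb was nearest to Tmem168 (r = 0.818), Clasp2 and Gyg, on too few UMIs to read.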

How the data were processed

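Single-cell 3′ libraries of 4 samples were aligned to mm10 by the authors with Cell Ranger 3.0.2, and the deposited table holds raw UMI counts for all cells together, with no sample names; its smallest cell has 500 UMIs. Cells with at least 200 genes and at or below the 98th percentile of genes and of mitochondrial share were kept. Each cell was scored for 25 types with 5 to 12 markers each, and was assigned at a score of 0.2, a lead of 0.1 over the next type and 3 detected markers. The members, gene lists and markers were chosen with earlier results of these data known, and the gate thresholds, the mixed class and the bins of the score order were set after the data were seen (a bin of few cells was merged into its neighbour). Counts were summed per class with Python 3.11.15 and SciPy 1.17.1, with exact Poisson intervals for levels, Clopper-Pearson intervals for shares and conditional intervals for ratios. The interval code was tested on simulated data. Genes at 50 CPM in either class entered the comparisons across all genes. Named genes are the members, the listed complement genes and, per member, the 3 with the highest Pearson correlation. Doublets were kept: Scrublet, set to expect 6% doublets, marked 181 of 20299 cells (0.892%). Leaving out the marked cells may therefore leave doublets in. No p-value was computed. No other column of per-sample values was used. An allele and a gene are not reported here.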

Additional observations from a re-analysis of the deposited data

How the results depend on the processing

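No paired analysis was possible because the cells carry no sample, and no replicate could be left out for the same reason. The results were recomputed under 7 alternatives. These were a stricter gate, clusters in its place, and removal of Scrublet doublets or of TdTomato-positive cells outside the epithelium. The others were at least 500 genes per cell, and upper limits on cells dropped or set at the 95th percentile. Of 77 recomputed values, 61 stayed within the counting interval. Most of the values are levels within a class and have no direction. The C1q and C3 ratios between classes have one, and neither changed it. Each member's highest class was unchanged in all 7, except for Cfb, where it was unchanged in 5 and passed to alveolar macrophage-like cells with clusters and without TdTomato-positive cells. With clusters, C1qa was at 5526, C1qb at 5261, C1qc at 3478 and C3ar1 at 275 CPM in interstitial macrophage-like cells. The log2 ratio of C1q, interstitial over alveolar, was 9.09 with clusters, 8.36 without upper limits, 10.22 without Scrublet doublets, 10.50 with the stricter gate and 9.52 without TdTomato-positive cells. The stricter gate gave 3955 CPM for C1qc, 490 CPM for Cfp and a bound of -2.57 for the C3 log2 ratio of ATI-like over ATII-like cells, which was -2.60 from 4 ATI-like UMIs without upper limits. Without TdTomato-positive cells, C1qc was at 3944 and Serping1 at 1232 CPM. With at least 500 genes, C5ar1 was at 411 CPM over 674 neutrophil-like cells. Of 18 shares at other thinning depths, 15 left the interval, since a share with a UMI grows with depth. The causes of these shifts were not tested beyond the make-up of each alternative. Levels that rest on 3 UMIs or fewer in a class, as for Cfb in mature dendritic-like cells, have wide counting intervals.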
